A study of Drosophila melanogaster with 8 samples.

Results

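The vacuolar proton pump (V-ATPase) genes of Drosophila melanogaster were taken as all genes whose current symbol starts with Vha and which had a probe set annotated to that gene alone. This rule gave 31 genes with 32 probe sets, of 11983 genes measured. They comprised 11 genes of the V1 sector, 18 of the V0 sector and 2 accessory genes. The gene table lists 33 Vha genes. Vha68-1 and Vha68-2, which both encode catalytic subunit A, were not analysed here because neither had a probe set of its own.

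The pump is a rotary motor of the same family as the mitochondrial ATP synthase, working in reverse. The cytosolic V1 sector splits ATP and turns a central shaft, and the shaft turns a ring of proteolipids in the membrane-bound V0 sector, which carries protons across the membrane. It acidifies endosomes and lysosomes in every cell, and synaptic vesicles in neurons. In insect epithelia such as the Malpighian (renal) tubule it also lies in the apical plasma membrane, where the proton gradient drives sodium and potassium exchange and with it the secretion of fluid. Most subunits have several gene copies in the fly. 1 set, called the tubule-type genes here, holds the copies that build the plasma membrane pump of epithelia, and the remaining copies are called the other paralogues. The tubule-type set also holds the genes for subunits B, C, E, G and H, which have no second Vha gene. For these subunits the type does not separate an epithelial copy from others. For the other subunits, whether a tubule-type copy also serves cells outside epithelia was not tested. The types also differed in level, with tubule-type values of 10.91 to 13.59 and 12 of the 17 other paralogues at a mean under 7.5. A contrast between the types is therefore also one between strong and weak signals. The set was drawn from textbook knowledge of the fly pump, and 12 of its 13 genes were measured.

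The study compared females of a Zimbabwean (Z) population shortly after mating with males of their own or of a cosmopolitan population. All females were of SZ, a composite of 6 Z isofemale lines, and were virgins 7 days after eclosion until the experimental mating. The mates were SZ males for 4 pools (ZxZ) and, for the other 4, males of LHM, an outbred M strain from California (ZxM). By the paper's methods each of 4 replicates held both matings. A pool held 8 whole females frozen 30 minutes after mating and was hybridised to 1 Affymetrix array, and the labels call the pools biological replicates. Each group therefore rests on 1 female population and 1 male population, no unmated females were included, and RNA of all tissues was mixed. In whole flies fewer cells of a type and less RNA per cell cannot be told apart.

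Levels are log2 values from a variance-stabilising transformation, in which small signals are compressed, so that folds of weakly detected genes are understated. Tests compared a gene with itself between arrays, and a level is set beside other probe sets only to say how weak its signal was. Differences are ZxZ minus ZxM in log2 units. Array correlations over all probe sets lay between 0.996 and 0.998. The 50% of the genes that varied most between arrays, 5991 genes, were tested in limma with array weights, and a gene was called at a 10% false discovery rate (FDR, Benjamini-Hochberg). In this fit ZxM replicate 2 had the smallest weight (0.505) and ZxM replicate 1 the largest (1.75). Of the tested genes 1123 (18.7%) were called, 1057 (17.6%) lower and 66 (1.1%) higher in ZxZ. Without the variability filter no gene was called by limma, although 2529 of 11983 had an unadjusted p under 0.05. For genes that were not tested, differences come from that unfiltered fit.

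The pump genes as a whole differed little between the matings. Of the 31 genes 19 were tested, and 1 was called: Vha16-5, a gene for proteolipid c, was higher in ZxZ by 0.14 in log2 units, at a signal so weak that no fold is given. That is 1 of 19 beside 18.7% of all tested genes. None of the 19 was called lower, beside 17.6% of all tested genes. Both shares take in genes of every level. The median difference of all measured genes was -0.10 at mean levels of 10 to 11, -0.048 at 12 to 13 and 0.027 at 7 to 8. The part of level in these counts was not tested. Vha100-5, a gene for subunit a, came closest to being called lower, with a difference of -0.23 and an adjusted p of 0.101 in limma, and 2 of the 19 had an unadjusted p under 0.05, beside 35% of all tested genes. In 28 of 31 genes the 95% interval of the difference in the unfiltered fit included 0, and in 29 the difference was smaller than 0.1 in size. The ZxZ and ZxM arrays did not overlap for 2 of 31 genes, 1 lower and 1 higher in ZxZ. Over all measured genes 10.2% did not overlap, 8.7% lower and 1.54% higher in ZxZ.

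**Figure D1:**
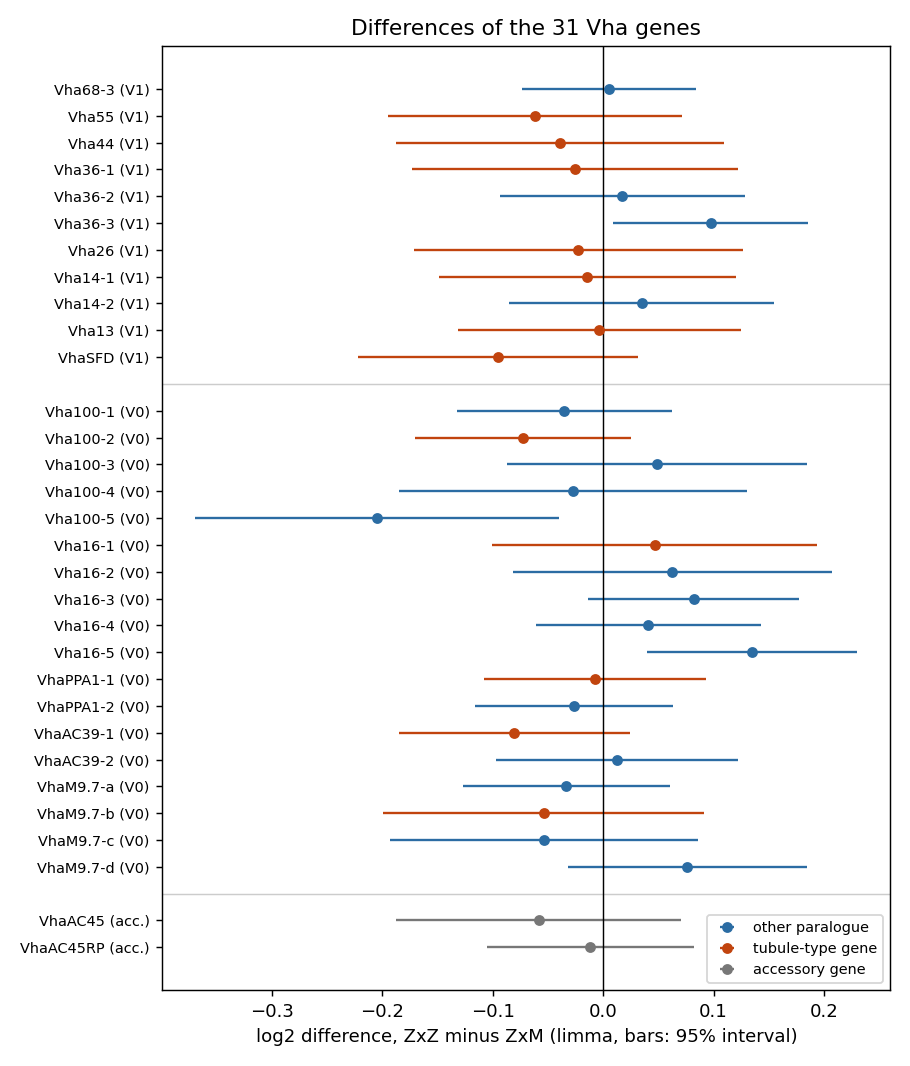
Difference of each of the 31 Vha genes between ZxZ and ZxM females in log2 units, from limma on all measured genes with its 95% interval, for V1, V0 and accessory (acc.) genes from top to bottom and coloured by type. The intervals of Vha36-3, Vha100-5 and Vha16-5 leave out 0, and the other 28 include it.

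None of the 7 tubule-type V1 genes was called, and all 7 were tested. Vha55 encodes subunit B, which alternates with subunit A in the ATP-splitting head. It was measured at 12.31, 12.34, 12.30 and 12.19 in ZxZ and 12.38, 12.12, 12.46 and 12.39 in ZxM. The highest and the lowest arrays both belonged to ZxM, so the ZxZ arrays lay within the ZxM range, and the difference was -0.08 (SE 0.0628, adjusted p = 0.341) in limma. Vha44 encodes subunit C, part of the stator junction that is released when the sectors come apart. It was at 11.07, 11.15, 11.14 and 11.05 in ZxZ and 11.19, 10.91, 11.36 and 11.11 in ZxM. Again the ZxM arrays enclosed all 4 ZxZ arrays, with a difference of -0.06 (SE 0.0698, adjusted p = 0.524).

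The shaft of the motor is built from subunits D and F. Vha36-1, the tubule-type gene for subunit D, was at 12.39, 12.48, 12.27 and 12.24 in ZxZ and 12.43, 12.22, 12.52 and 12.31 in ZxM. Its highest array was ZxM replicate 3 and the groups overlapped, with a difference of -0.06 (SE 0.07, adjusted p = 0.524). Vha14-1, for subunit F, was at 12.68, 12.73, 12.53 and 12.47 in ZxZ and 12.67, 12.54, 12.70 and 12.55 in ZxM. Here ZxZ replicates 3 and 4 were the lowest of all 8 arrays while replicate 2 was the highest, and the difference was -0.05 (SE 0.0651, adjusted p = 0.606).

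Peripheral stalks made of subunits E and G hold the head in place. Vha26, for subunit E, was at 12.89, 12.96, 12.86 and 12.73 in ZxZ and 12.91, 12.68, 13.08 and 12.86 in ZxM. Vha13, for subunit G, was at 13.44, 13.49, 13.39 and 13.35 in ZxZ and 13.47, 13.29, 13.59 and 13.34 in ZxM. In both genes ZxM replicate 2 was lowest and ZxM replicate 3 highest, on either side of every ZxZ array. The differences were -0.05 (SE 0.0712, adjusted p = 0.592) for Vha26 and -0.03 (SE 0.0623, adjusted p = 0.729) for Vha13. VhaSFD, for the regulatory subunit H, was at 11.41, 11.51, 11.40 and 11.32 in ZxZ and 11.48, 11.37, 11.68 and 11.52 in ZxM. Its groups overlapped, although 3 of 4 ZxM arrays lay above 3 of 4 ZxZ arrays, and at -0.11 (SE 0.0624, adjusted p = 0.202) it had the largest difference of the tubule-type genes.

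Of the 5 tubule-type V0 genes 2 varied enough to be tested and neither was called. Vha16-1 encodes proteolipid c of the rotating ring and was at 13.26, 13.32, 13.21 and 13.04 in ZxZ and 13.23, 13.01, 13.30 and 13.11 in ZxM. The groups overlapped, with a difference of 0.01 (SE 0.0712, adjusted p = 0.905). A second probe set for Vha16-1 was at 13.54, 13.56, 13.44 and 13.34 in ZxZ and 13.39, 13.36, 13.52 and 13.32 in ZxM. It also overlapped, and its difference was 0.09 (SE 0.0554, adjusted p = 0.373) when every probe set entered limma on its own. In that fit the first probe set gave 0.05. VhaM9.7-b, for the small subunit e, was at 12.29, 12.27, 12.18 and 12.10 in ZxZ and 12.32, 12.12, 12.46 and 12.18 in ZxM. The ZxM arrays again spanned nearly the whole range, with a difference of -0.09 (SE 0.07, adjusted p = 0.362).

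The 3 remaining tubule-type V0 genes did not vary enough to be tested. Vha100-2, for subunit a, through which protons enter and leave the membrane, was at 11.99, 11.84, 11.94 and 11.90 in ZxZ and 11.95, 11.96, 12.08 and 12.01 in ZxM. ZxM replicate 3 was highest, ZxZ replicate 2 lowest, and the difference was -0.07 (SE 0.0443, adjusted p = 0.355 in the unfiltered fit). VhaPPA1-1, for the proteolipid c″ of the ring, was at 12.53, 12.49, 12.46 and 12.39 in ZxZ and 12.48, 12.39, 12.59 and 12.45 in ZxM. It overlapped almost fully, at -0.01 (SE 0.0456, adjusted p = 0.937 in the unfiltered fit). VhaAC39-1, for subunit d, which joins the shaft to the ring, was at 12.30, 12.25, 12.29 and 12.19 in ZxZ and 12.33, 12.27, 12.49 and 12.32 in ZxM. 3 of the 4 ZxM arrays lay above every ZxZ array, but ZxM replicate 2 lay among them, and the difference was -0.08 (SE 0.0474, adjusted p = 0.34 in the unfiltered fit).

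Across the 12 tubule-type genes the 95% intervals of the unfiltered fit ran from -0.22 to 0.19 in log2 units, and all 12 included 0. In the fit of the tested genes the interval of VhaSFD ran from -0.25 to 0.02 and that of VhaM9.7-b from -0.24 to 0.07. The spread between pools, as SD, was 0.0491 to 0.12 in ZxZ and 0.0588 to 0.185 in ZxM, and it was wider in ZxM for 10 of the 12 genes. 4 of these genes were read by probe sets with the suffix s_at, which can match more than 1 transcript, although the annotation lists a single gene for each.

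The tubule-type genes varied together from pool to pool. All 12 were highest among the ZxM arrays in replicate 3, and 11 of 12 were lowest in replicate 2. Among the ZxZ arrays 11 of 12 were lowest in replicate 4. The V1 genes were all highest in ZxZ replicate 2, whereas 4 of the 5 V0 genes were highest in ZxZ replicate 1. Other genes of like level shared part of this pattern: of 1094 genes between 11 and 14, 71.9% were highest of the ZxM arrays in replicate 3 and 52.7% lowest in ZxM replicate 2. Among the ZxZ arrays 41.5% of them were lowest in replicate 4 and 44.8% in replicate 3, and 55.2% were highest in replicate 1 and 34.5% in replicate 2. Genes are not independent replicates, so these counts describe the 8 pools.

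**Figure D2:**
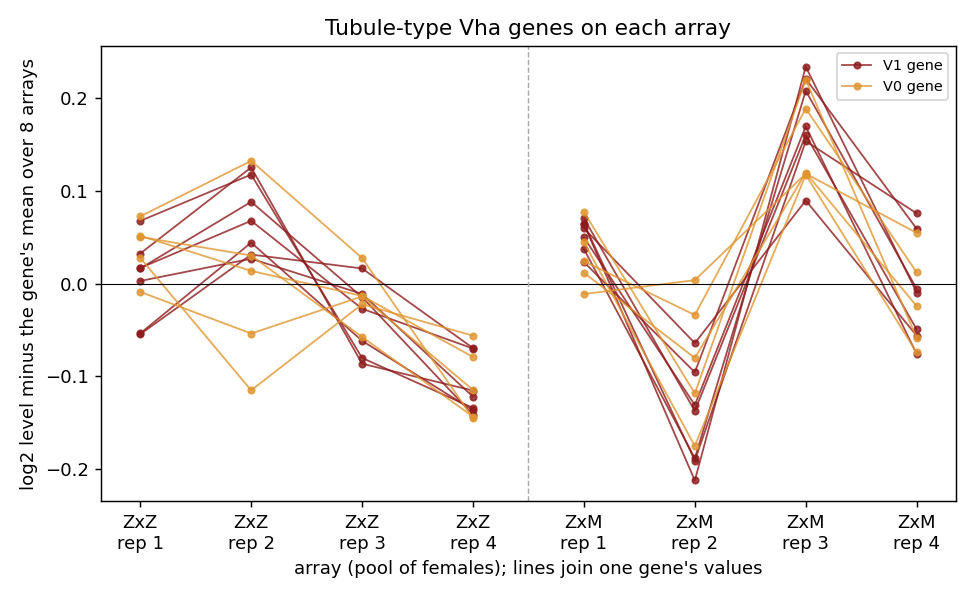
Level of the 12 tubule-type genes on each array, as log2 level minus the gene's own mean over 8 arrays, with V1 genes dark red, V0 genes orange and a line joining the values of 1 gene. All 12 genes have their highest ZxM value in replicate 3, and 11 have their lowest ZxM value in replicate 2.

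Averaged over the 12 tubule-type genes, the ZxZ level was 12.34 ± 0.0676 and the ZxM level 12.38 ± 0.119 in log2 units (mean ± SD, n = 4 pools each). The ZxZ pools gave 12.38, 12.40, 12.33 and 12.25 and the ZxM pools 12.40, 12.24, 12.53 and 12.35. The ZxM pools held both the highest and the lowest average. The 17 other paralogues averaged 7.59 ± 0.0207 in the ZxZ pools and 7.58 ± 0.00903 in the ZxM pools. Their pools gave 7.59, 7.57, 7.60 and 7.62 in ZxZ and 7.57, 7.59, 7.58 and 7.58 in ZxM, which overlapped too.

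The fitted differences leaned opposite ways in the 2 types. In the unfiltered fit 11 of 12 tubule-type genes had a negative difference, with a median of -0.03, and 11 of 17 other paralogues a positive one, with a median of 0.02. Over all 11983 measured genes the median was -0.03, and 7492 had a negative difference. By mean level, 678 of 738 genes were negative at 11 to 12, 219 of 274 at 12 to 13 and 32 of 82 at 13 to 14. At 6 to 7 there were 1161 of 3375 negative, and at 7 to 8 there were 805 of 2266. Neither type was tested as a list, because its members were chosen with results known. The tubule-type median turned positive in limma without ZxM replicate 1 (0.0045), without ZxM replicate 3 (0.02) or without ZxZ replicate 4 (0.00096), and the median of the other paralogues turned negative (-0.01) when each array was centred on its median.

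Differences varied with the level of a gene across the whole array. The median difference was 0.018 for 3375 genes with a mean level of 6 to 7 and 0.027 for 2266 genes between 7 and 8. It was -0.060 for 1322 genes between 8 and 9 and -0.092 for 2028 between 9 and 10, where 1833 were negative. It was -0.10 for 1849 genes between 10 and 11, -0.089 for 738 between 11 and 12 and -0.048 for 274 between 12 and 13. Above that it was positive, at 0.018 for 82 genes between 13 and 14 and 0.12 for 49 between 14 and 15. Of the tubule-type genes, Vha13 and Vha16-1 had means between 13 and 14. Tubule-type values were between 10.91 and 13.59, and 12 of the 17 other paralogues had a mean under 7.5. The part of this trend in the contrast between the types or in the counts of called Vha genes was not tested.

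**Figure D3:**
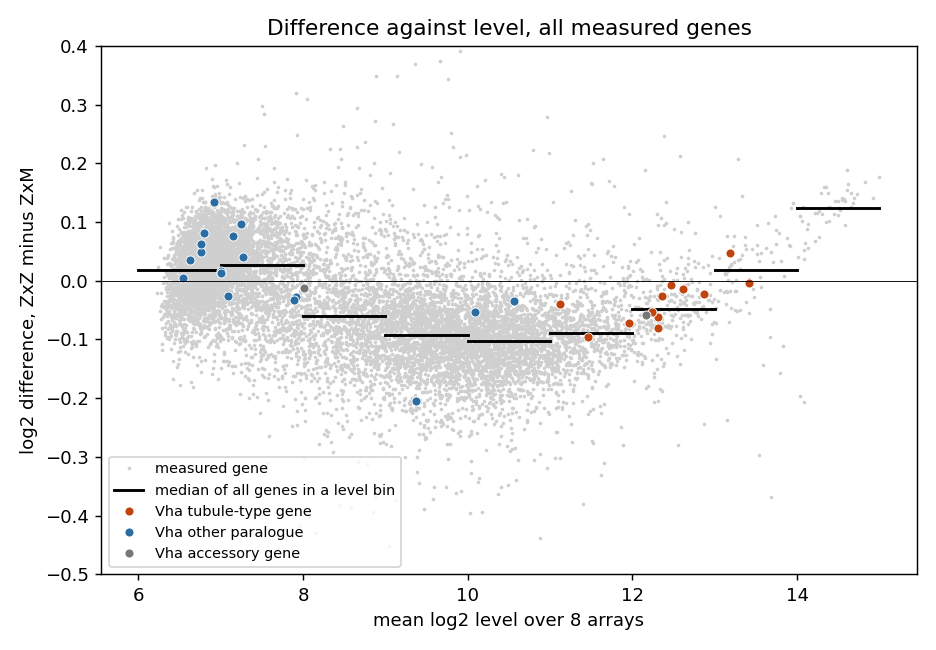
Difference between ZxZ and ZxM (limma on all measured genes, log2 units) against the mean log2 level over 8 arrays, for all measured genes (grey) and the Vha genes (coloured by type), with 15 genes beyond the vertical axis not drawn and black bars for the median of all genes in each unit of level. The bars lie at 0.018 between 6 and 7 and at -0.10 between 10 and 11, and 11 of 12 tubule-type genes lie under 0 while 11 of 17 other paralogues lie above it.

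V1 and V0 genes were alike in their median difference, at -0.01 for 11 V1 genes and -0.02 for 18 V0 genes. Of the V1 genes 7 had negative and 4 positive differences, and of the V0 genes 10 and 8, beside 7492 negative of all 11983 measured genes. Leaving out ZxM replicate 1 or 3 made the V1 median positive (0.03 and 0.02), as did leaving out ZxZ replicate 3 or 4 (0.02 and 0.0069), and the V0 median was positive without ZxM replicate 1 or 3 (0.0056 each) and after quantile normalization (0.01). By type, all 7 tubule-type V1 genes were negative (median -0.03) and all 4 other V1 paralogues positive (median 0.03), while 4 of 5 tubule-type V0 genes were negative (median -0.05) and the 13 other V0 paralogues were divided, 7 positive and 6 negative (median 0.01). No difference between sectors or types was tested. Within each pool the average of the tubule-type V1 genes minus that of the tubule-type V0 genes was -0.16, -0.06, -0.15 and -0.13 in ZxZ and -0.10, -0.19, -0.10 and -0.12 in ZxM. The groups overlapped, with the highest value in ZxZ replicate 2 and the lowest in ZxM replicate 2.

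Proteolipid c is encoded by Vha16-1 and by 4 other paralogues, and all 5 had positive differences. Of all genes at a mean level of 6 to 7, 1161 of 3375 were negative. At 7 to 8 there were 805 of 2266, and at 13 to 14, where Vha16-1 lay, 32 of 82. Over the alternative settings Vha16-1 ran from -0.05 to 0.08. Vha16-5 was the gene called. It was measured at 6.96, 6.90, 7.05 and 7.04 in ZxZ and 6.88, 6.86, 6.82 and 6.83 in ZxM. All 4 ZxZ arrays lay above all 4 ZxM arrays, and the gap between the nearest pair was small. The means were 6.99 ± 0.0704 in ZxZ and 6.85 ± 0.0268 in ZxM (SD, n = 4), and the difference was 0.14 (SE 0.0494, adjusted p = 0.0942) by limma, with a 95% interval of 0.036 to 0.25. Vha16-5 was called in 7 of the 16 alternative settings that tested it, and not, for example, without array weights or after quantile normalization (adjusted p = 0.199 and 0.525). The call was lost in limma without ZxM replicate 1 (adjusted p = 0.181) or ZxM replicate 3 (adjusted p = 0.244), and without ZxZ replicate 3 (difference 0.10) or ZxZ replicate 4 (difference 0.11) the gene no longer varied enough to be tested. In the settings named here that lost the call, no gene of the array was called.

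The level of Vha16-5 was below the array medians of 7.23 to 7.31 on every array. Its signal over background is not known, so whether the gene was expressed at all was not tested. Testis markers, a list that includes the testis tubulin betaTub85D and the sperm tail gene dj, lay in the same range. Of the 14 measured, with values from 6.18 to 7.52, 4 were tested and none was called by limma or had an unadjusted p under 0.05. The smallest p values were those of djl and Mst98Cb, each at a difference of 0.06 in the unfiltered fit (SE 0.0365 and 0.0373). The arrays of djl did not overlap, at 6.29 ± 0.0265 in ZxZ and 6.23 ± 0.0346 in ZxM (SD, n = 4). The average of the list was 6.72 to 6.75 over the ZxZ pools and 6.69 to 6.76 over the ZxM pools. The remaining paralogues for proteolipid c were not called. Vha16-2 was at 6.78 ± 0.138 in ZxZ and 6.74 ± 0.0759 in ZxM, with a difference of 0.09 (SE 0.0685, adjusted p = 0.355). Vha16-3, its neighbour on 3L in the assembly Release 6 plus ISO1 MT, had a difference of 0.08 (SE 0.0432, adjusted p = 0.292 in the unfiltered fit). Vha16-4 had one of 0.04 (SE 0.0463, adjusted p = 0.619 in the unfiltered fit).

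Subunit a has 5 genes, and their differences were not alike. Vha100-5 was at 9.33, 9.40, 9.30 and 8.97 in ZxZ and 9.43, 9.52, 9.52 and 9.47 in ZxM. Every ZxZ array lay below every ZxM array, with ZxZ replicate 4 far below the rest and the 4 ZxM arrays close together. The means were 9.25 ± 0.193 in ZxZ and 9.48 ± 0.0405 in ZxM (SD, n = 4), a difference of -0.23 (SE 0.0829, adjusted p = 0.101) by limma with a 95% interval of -0.41 to -0.044, or 1.17-fold. It missed the 10% FDR narrowly. Of all genes at a mean level of 9 to 10, 1833 of 2028 had a negative difference, with a median of -0.092. Without ZxZ replicate 4 the difference was -0.12 (adjusted p = 0.248), and it was called when ZxM replicate 2 (adjusted p = 0.0871), ZxM replicate 4 (0.067), ZxZ replicate 1 (0.0618) or ZxZ replicate 2 (0.0601) was left out of the limma fit.

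The differences of the other genes for subunit a were smaller. Vha100-1, which encodes the subunit of synaptic vesicles in neurons, was at 10.54 ± 0.0443 in ZxZ and 10.58 ± 0.0628 in ZxM, with a difference of -0.05 (SE 0.0496, adjusted p = 0.474) by limma. Vha100-4, which serves acid secretion by the copper cells of the midgut, was at 7.89 ± 0.135 in ZxZ and 7.94 ± 0.0967 in ZxM, a difference of -0.02 (SE 0.0789, adjusted p = 0.848). It lies beside the tubule-type gene Vha100-2 on 3R in that assembly. Vha100-3 was at 6.79 ± 0.125 in ZxZ and 6.74 ± 0.0634 in ZxM, a difference of 0.06 (SE 0.0645, adjusted p = 0.496). All 3 overlapped between the groups.

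Subunit D has 2 paralogues beside the tubule-type gene. Vha36-3 was at 7.24, 7.33, 7.32 and 7.30 in ZxZ and 7.19, 7.12, 7.27 and 7.21 in ZxM. 3 of the 4 ZxZ arrays lay above all 4 ZxM arrays, and ZxZ replicate 1 lay below ZxM replicate 3, so the groups overlapped. The difference was 0.09 (SE 0.0464, adjusted p = 0.168) by limma and not called. In the unfiltered fit its unadjusted p was 0.0332 (adjusted p = 0.203), and in limma without ZxZ replicate 1 the gene was called at an adjusted p of 0.0852. Vha36-2 had a difference of 0.02 (SE 0.0503, adjusted p = 0.859 in the unfiltered fit). The other paralogues for the V1 sector were Vha14-2 (subunit F) at 0.03 (SE 0.0544, adjusted p = 0.728 in the unfiltered fit) and Vha68-3 (subunit A) at 0.01 (SE 0.0355, adjusted p = 0.941 in the unfiltered fit). Vha68-3 is the only gene for the catalytic subunit with a value here, and it was at 6.54 in both groups, among the lowest levels of the array.

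**Figure D4:**
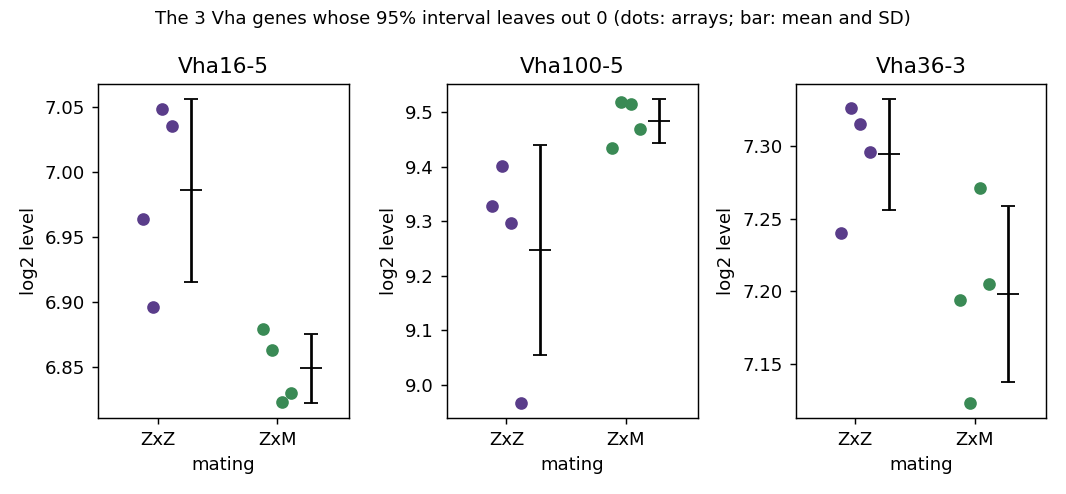
Log2 level of Vha16-5, Vha100-5 and Vha36-3 on each of 4 ZxZ (purple) and 4 ZxM (green) arrays, with the mean and SD of each group beside the points and a separate vertical axis for each gene. The groups do not overlap for Vha16-5 and Vha100-5, where ZxZ replicate 4 lies at 8.97, and overlap for Vha36-3.

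The V0 sector also holds small hydrophobic subunits. Among the genes for subunit e, VhaM9.7-c was at 10.07 ± 0.106 in ZxZ and 10.12 ± 0.119 in ZxM, with a difference of -0.06 (SE 0.0654, adjusted p = 0.499) by limma, and VhaM9.7-a had a difference of -0.05 (SE 0.0483, adjusted p = 0.474). VhaM9.7-d had one of 0.08 (SE 0.049, adjusted p = 0.378 in the unfiltered fit). VhaPPA1-2, the second gene for proteolipid c″, had a difference of -0.03 (SE 0.0408, adjusted p = 0.725 in the unfiltered fit), and VhaAC39-2, the second gene for subunit d, one of 0.01 (SE 0.0496, adjusted p = 0.898 in the unfiltered fit). None of these 5 genes was called, and the groups overlapped in each.

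VhaAC45 and VhaAC45RP encode accessory proteins related to the mammalian Ac45, which binds V0 and helps to assemble and sort the pump. VhaAC45 was at 12.13, 12.21, 12.15 and 12.04 in ZxZ and 12.25, 12.03, 12.33 and 12.14 in ZxM. Like the tubule-type genes it was highest in ZxM replicate 3 and lowest in ZxM replicate 2, and its difference was -0.08 (SE 0.0625, adjusted p = 0.333) by limma. VhaAC45RP was at 8.01 ± 0.0706 in ZxZ and 8.02 ± 0.0265 in ZxM, with a difference of -0.01 (SE 0.0424, adjusted p = 0.89 in the unfiltered fit).

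Genes that assemble or regulate the pump gave 1 call. Of 4 measured, 2 were tested and 1 was called lower, beside 17.6% of all tested genes called lower, with a median difference of -0.10 beside -0.03 over all measured genes. Rbcn-3B encodes a partner of Rbcn-3A in the complex that helps V1 and V0 to join. It was at 9.37 ± 0.0321 in ZxZ and 9.61 ± 0.135 in ZxM (SD, n = 4), the groups did not overlap, and the difference was -0.27 (SE 0.0577, adjusted p = 0.0866 by limma). Of all genes at a mean level of 9 to 10, 1833 of 2028 were negative, with a median of -0.092. ATP6AP2, homologue of the mammalian prorenin receptor and an accessory protein of the pump, was not tested and had a difference of 0.00091 (SE 0.0436, adjusted p = 0.993 in the unfiltered fit).

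The list of exchangers, channels and carbonic anhydrases (CAH1 and CAH2) that work beside the pump in epithelia had 11 genes measured and 8 tested. It gave 2 calls, both lower in ZxZ, beside 17.6% of all tested genes called lower. The median was -0.06 beside -0.03 over all measured genes. Nhe1, a sodium/proton exchanger, had a difference of -0.18 (SE 0.0553, adjusted p = 0.0888 by limma). ClC-c, a member of the CLC family of chloride channels and transporters, had a difference of -0.15 (SE 0.0556, adjusted p = 0.0988 by limma). The mean level was 9.43 for Nhe1 and 10.74 for ClC-c. The median of all genes was -0.092 at 9 to 10 and -0.10 at 10 to 11. None of 3 tested sodium pump genes was called (median -0.05). The beta subunit genes nrv3 and nrv1 had differences of -0.15 (SE 0.0823) and -0.07 (SE 0.0588). The calls of Rbcn-3B, Nhe1 and ClC-c, and those of Irk1 and Prip given next, were lost in some fits that left out 1 array. These were the fits without ZxM replicate 1 or 3, or ZxZ replicate 3 or 4, where no gene on the array was called. The call of Prip was also lost in settings with 1353 to 2400 genes called.

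Markers of the tubule and the midgut, the epithelia where the plasma membrane pump is known to work, were read in the same pools. Of 11 measured tubule markers 8 were tested and 2 were called lower in ZxZ, beside 17.6% of all tested genes. They were the potassium channel Irk1, at -0.26 (SE 0.0677, adjusted p = 0.0866), and the aquaporin Prip, at -0.18 (SE 0.0597, adjusted p = 0.0933), both by limma. Their mean levels were 10.02 and 10.18. Of all genes at a mean level of 10 to 11, 1755 of 1849 had a negative difference, with a median of -0.10. In the unfiltered fit 7 of the 11 tubule markers had a negative difference and 4 a positive one. When every probe set entered limma on its own, where no probe set was called, the 2 probe sets of Irk1 gave -0.23 and 0.06 and those of Prip -0.16 and -0.03. The average of the tubule markers was 8.56 to 8.78 over the ZxZ pools and 8.68 to 8.77 over the ZxM pools, with a median difference of -0.03. Of 9 tested midgut markers, which are digestive enzymes such as the trypsin alphaTry and the maltase Mal-A1, none was called by limma. In the unfiltered fit 6 of the 9 had a negative difference and 3 a positive one, and Jon99Ci and Mal-A1 had the smallest p. In the fit of the tested genes Jon99Ci, a serine protease, had a difference of -0.17 (SE 0.0748, adjusted p = 0.131). Mal-A1 had one of 0.11 (SE 0.1, adjusted p = 0.426) there, and its p was not among the 2 smallest of the list. The midgut average was 12.3 to 12.7 over the ZxZ pools and 12.6 to 12.8 over the ZxM pools, with a median of -0.10. Midgut marker values lay between 9.89 and 14.12. For all genes the median was -0.10 at mean levels of 10 to 11 and -0.089 at 11 to 12. It was -0.048 at 12 to 13 and 0.018 at 13 to 14. The part of tubule or midgut content in the values of the pump genes was not tested.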

How the data were processed

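The values were deposited in log2 units for 18952 probe sets on 8 Affymetrix Drosophila Genome 2.0 arrays, 4 for each mating. The authors used VSN for background correction, normalization between arrays and transformation, and RMA in the affy package to summarise probes. VSN is a generalised logarithm that compresses small signals. Detection calls and scanner files were not used here, so the signal over background of single probe sets is unknown. Precision is limited by the number of arrays.

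Gene names came from the platform annotation, and symbols were updated by Entrez number from the gene table of Release 6 plus ISO1 MT. Of all probe sets 13647 had 1 gene and 402 had several, which were left out. Following the study's methods, each gene was represented by its most variable probe set and the 50% of genes with the largest interquartile range were tested (0.5 in the methods was read as a quantile, and the number of genes tested differs from the study's). limma 3.58.1 in R 4.3.3 was used with lmFit, REML array weights and eBayes, two-sided, with Benjamini-Hochberg adjustment over all tested genes. The fit was tested first on simulated data in which the genes varied independently. That test does not cover deviations that genes share within an array. Alternatives changed the weights, filter, probe set, normalization, block, prior, test or set of arrays.

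Every Vha gene may be named. Values of all arrays are given for the tubule-type genes, VhaAC45 and genes called or with an unadjusted p under 0.05. Of the other lists, called members or, with none called, the 2 members of smallest p in the unfiltered fit are given. ATP6AP2 was added after its values were seen. VhaAC45 was given array by array after its values were seen. The members, the types and the lists were chosen with earlier results of these data known, so no list was tested. Chromosome arms and neighbours come from the gene table named above. Coordinates and sequences were not used here.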

Additional observations from a re-analysis of the deposited data

Results flagged for a closer look

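Each group of 4 arrays was searched, for all 31 genes, for a highest or lowest array that stands apart from the other three by Dixon's test at the 5% level. Of 62 groups 3 were picked out, where chance gives about 3.1. Vha36-2, for subunit D, was at 6.886 in ZxM replicate 4, below the other ZxM arrays at 7.02 to 7.037. Vha16-4, for proteolipid c, was at 7.402 in ZxZ replicate 4, above the other ZxZ arrays at 7.238 to 7.258. VhaM9.7-d, for subunit e, was at 7.299 in ZxZ replicate 4, above the other ZxZ arrays at 7.143 to 7.162. All 3 genes had low signals and none was called.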

How the results depend on the processing

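Over 19 alternative settings 11 gave 0 called Vha genes and 8 gave at least 1. The count was 0 when array weights or the variability filter were dropped, when an interquartile range of 0.5 or more was required (51 genes tested), with every probe set on its own, after quantile normalization, with the replicate block and by Student's test. In these settings no gene of the array was called, except 1 with the replicate block and 10 by Student's test. It was 2 (Vha100-5 and Vha16-5) with each gene's brightest probe set, with the lowest 25% of probe sets left out and with a trend and robust prior, each with 1 gene, Vha100-5, lower. It was 4, all lower (Vha55, VhaSFD, Vha100-5 and VhaAC45), with arrays centred on their median, where 61.3% of tested genes were called. Leaving out 1 array gave 0 to 3 called genes and 0 to 1 called lower. There were 0 when ZxM replicate 1 or 3, or ZxZ replicate 3 or 4, was left out, settings in which no gene of the array was called (over all settings the count of called genes ran from 0 to 3674, against 1123), 2 without ZxM replicate 2, ZxM replicate 4 or ZxZ replicate 2, and 3 without ZxZ replicate 1. Over the settings that tested it, Vha16-5 was called in 7 of 16 and kept a difference of 0.10 to 0.18, and Vha100-5 was called in 8 of 18, at -0.29 to -0.12. The sign of 10 of 31 genes turned after quantile normalization, 5 with centred arrays and 10 without ZxZ replicate 4. Class medians ran from -0.07 to 0.02 for tubule-type genes, from -0.01 to 0.04 for other paralogues, from -0.05 to 0.03 for V1 and from -0.05 to 0.01 for V0 genes. With every probe set on its own, the second probe set of Irk1 reversed the sign, at 0.062 (adjusted p = 0.57 by limma). By the paper's methods each replicate held both matings, but the labels do not say that equal numbers mark the same replicate. Same-numbered pools did not deviate together in all pairs (correlations 0.144, -0.264, -0.196 and 0.157), which cannot decide whether they were pairs. The main fit left pairing out, and with the replicate block 1 gene of the array was called, against 1123. The causes of these changes were not tested.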

Other observations

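The mitochondrial ATP synthase, the relative of the pump that makes ATP, had no called gene in these pools. None of 12 tested genes of 15 measured was called by limma or, in the unfiltered fit, had an unadjusted p under 0.05, beside 18.7% called and 21.1% with such a p over all genes, and the median difference was 0.01. ATPsynbetaL and ATPsynbeta, the members with the smallest p, had differences of 0.08 (SE 0.04) in the unfiltered fit and 0.09 (SE 0.0656) in the fit of the tested genes.

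Genes of the lysosome and of the machinery that docks the growth kinase complex TOR there had a median difference of -0.07, beside -0.03 over all measured genes and -0.10 for all genes at levels of 10 to 11. None of 7 tested among 12 measured was called, beside 18.7% of all tested genes. In the unfiltered fit of limma 5 of the 12 had an unadjusted p under 0.05, beside 21.1% of all measured genes. Lamtor5, part of the Ragulator complex that anchors TOR signalling at the lysosome, had a difference of -0.15 (SE 0.0537, adjusted p = 0.101 by limma), and it was called in 8 of the 17 alternative settings that tested it. Npc1a, the cholesterol transporter of late endosomes, was not tested and had a difference of -0.14 (SE 0.057, adjusted p = 0.202 in the unfiltered fit).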
